A study of Apis mellifera with 27 samples.

Results

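The morning comparison set tissue taken at 10:00 of day 11 against tissue taken at 06:00 of the same day, using 7 of the 27 libraries analysed here. Libraries were chosen by their labels alone: 4 carried the label 10:00, with 2 from colony 1 and 2 from colony 2, and 3 carried the label 06:00, with 2 from colony 1 and 1 from colony 2. The animals were time-trained foragers of the honey bee, Apis mellifera, and no drug or genetic change was labelled in any group. Each library held polyadenylated RNA of brain tissue cut out under a laser microscope so as to enrich for small Kenyon cells, and the 2 colonies were run as separate experiments. A further colony 2 library of 06:00 was not analysed here, so at dawn colony 2 rests on 1 library, called the colony 2 dawn library below. The table counted reads for 12319 genes, of which 9816 had enough counts to be tested.

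Kenyon cells are the intrinsic neurons of the mushroom bodies, the paired centres of learning and memory in the insect brain. They receive acetylcholine from the sensory projection neurons and are modulated by dopamine, octopamine and tyramine acting on G protein-coupled receptors. Foragers learn the hour at which a food source is rewarding, and the comparison from dawn to mid-morning covers the start of the foraging day. The time of training in each colony was not used here.

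The 7 libraries were not equally alike. Total counts were 5589770 to 9185744 at 10:00 and 8732841 to 9357928 at 06:00, and 8483 to 10068 genes and 9611 to 10087 genes had a count. On the first principal component of log2 levels the colony 2 dawn library (77.6) and both colony 2 libraries of 10:00 (94.7 and 66.0) stood far from the rest. So 3 of the 7 libraries compared stand apart and all 3 are colony 2. These 3 did not lie together on the second component. There the colony 2 dawn library was at 50.9 and the colony 2 libraries of 10:00 at -53.8 and -17.6. The lowest totals of the 7, 5589770 and 6242597, were those of both colony 2 libraries of 10:00. The labels do not say whether libraries came from separate bees, so every p-value below reflects the spread among the deposited libraries and nothing beyond it, and that spread may be technical. In bulk tissue, fewer cells of a type and less RNA per cell cannot be told apart. Levels below are CPM, counts brought to a common library size, and log2 differences are 10:00 minus 06:00 with colony as a term.

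At 10:00, 126 genes were higher and 133 were lower than at 06:00 (edgeR's quasi-likelihood test, Benjamini-Hochberg adjusted p under 0.05). That is 1.28% and 1.35% of the genes tested, 2.64% together, and 1837 genes had an unadjusted p under 0.05. The higher genes had a median log2 difference of 0.89 and the lower genes one of -0.69, beside -0.05 over all genes tested. A difference of at least 2-fold was found for 46 of the higher and 27 of the lower genes. In 204 of the 259 called genes, 105 higher and 99 lower, no library of 10:00 overlapped with any of 06:00, a pattern found in 7.81% of all genes tested. Long noncoding RNAs made up 4 of the higher genes (LOC107964583, LOC107964623, LOC107964977 and LOC100578793) and 0 of the lower genes, and 943 of the genes tested. Most called genes are known by an identifier alone (119 higher and 129 lower), and 11 carry a symbol, 1 of these the microRNA gene Mir6058.

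**Figure D1:**
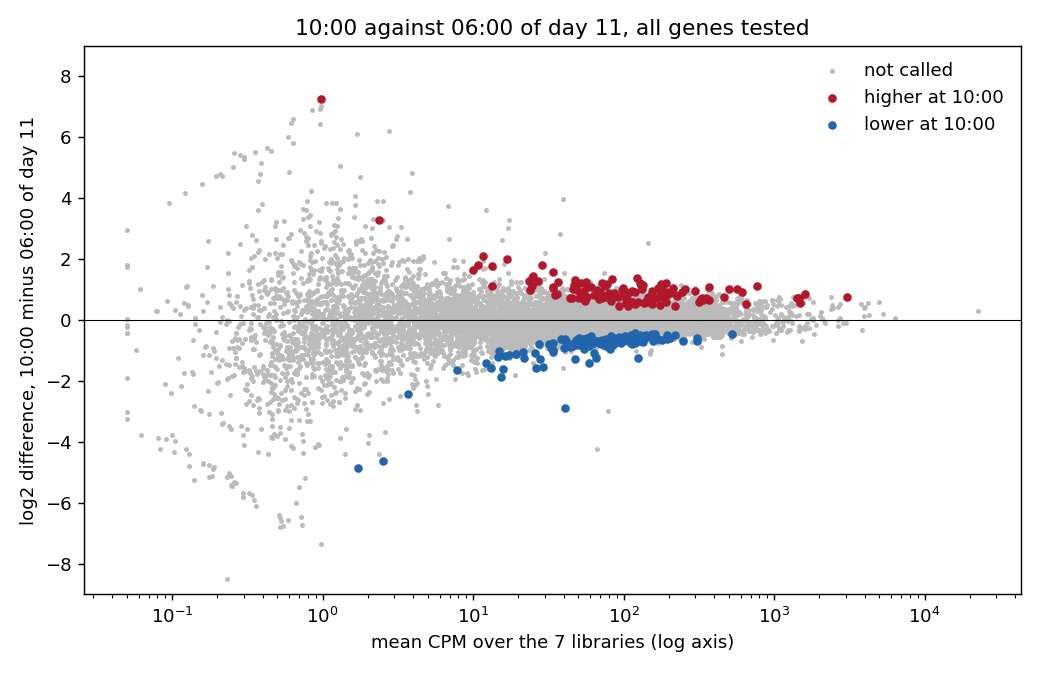
The horizontal axis gives the mean CPM over the 7 libraries on a log axis (levels under 0.05 CPM are drawn there) and the vertical axis the log2 difference, 10:00 minus 06:00. Each point is 1 of the 9816 genes, with the 126 higher genes in red and the 133 lower genes in blue. Of the called genes, 2 higher and 4 lower ones lie under 10 CPM.

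The colony 2 dawn library decides many of these calls. When it was left out, 06:00 was represented by colony 1 alone, and 79 genes were higher and 115 lower of 10038 tested, 1.93% in all. Both analyses called 89 genes, 44 higher and 45 lower, which is 34.4% of the 259 genes and 45.9% of the 194 called without that library. All 259 genes had the same direction without it, which the choice of genes favours, because the other libraries were used in both fits. Their medians were smaller, at 0.69 for the higher and -0.56 for the lower genes, beside 0.00 over all genes. Calls also moved with other libraries: in all, 693 genes were called without the colony 1 replicate 1 library of 06:00 and 133 without the colony 2 replicate 2 library of 10:00. Leaving out each of the 7 libraries in turn, 51 genes (31 higher and 20 lower) were called every time. With all 3 libraries that stand apart left out, 49 genes were higher and 41 lower, 51 of them among the 259. The calls also depend on the spread estimated from all 27 libraries: fitted on the 7 libraries alone, or with libraries of a colony and time summed, edgeR called 0 genes (1067 and 1232 at an unadjusted p under 0.05) and limma-voom 0.

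**Figure D2:**
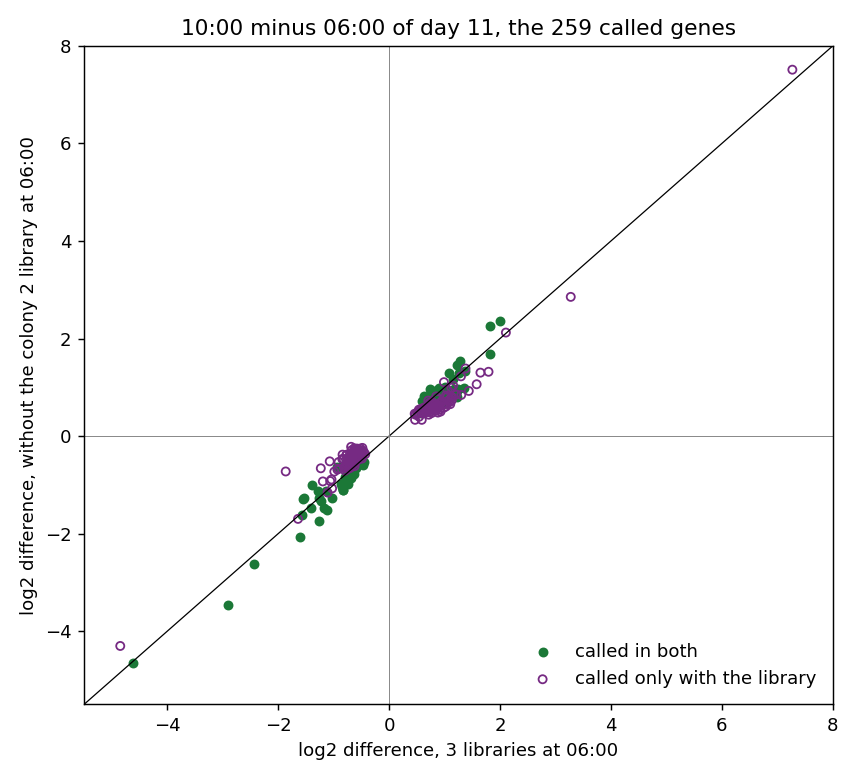
The 259 called genes are plotted by their log2 difference with all 3 libraries at 06:00 (horizontal axis) and without the colony 2 dawn library (vertical axis), with a line of equality. Filled points are the 89 genes called in both analyses. Every point lies in the quadrant of its original direction, which the choice of genes favours.

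The 7 higher genes with a symbol were mGlutR1, nAChRa1, nAChRa3, Ip3k, Adar, Hsp90 and Mir6058. Without the colony 2 dawn library, Hsp90 was the single one of the first 6 to pass. The metabotropic glutamate receptor mGlutR1 was at 137 and 138 CPM in colony 1 and 122 and 101.5 CPM in colony 2 at 10:00, against 74.9 and 76.3 CPM in colony 1 and 35.8 CPM in colony 2 at 06:00. The groups did not overlap, and the colony 2 dawn library was the lowest. Its log2 difference was 0.99 ± 0.22 (SE, adjusted p = 0.0173), and 0.67 (adjusted p = 0.0832) without that library. At 06:00 of day 12 its 4 libraries had 90.2 to 136 CPM, a range that overlaps with 10:00.

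Both called members of the acetylcholine list were nicotinic receptor subunits. The subunit nAChRa1 had 59.3 and 54.8 CPM in colony 1 and 60.6 and 82.4 CPM in colony 2 at 10:00, against 44.7 and 36.2 CPM in colony 1 and 23.6 CPM in colony 2 at 06:00, a log2 difference of 0.89 ± 0.23 (SE, adjusted p = 0.0358). The subunit nAChRa3 had 103 and 90.0 CPM in colony 1 and 110 and 121 CPM in colony 2 at 10:00, against 73.96 and 70.0 CPM in colony 1 and 81.6 CPM in colony 2 at 06:00, a log2 difference of 0.46 ± 0.13 (SE, adjusted p = 0.0447). In both genes every library of 10:00 lay above every library of 06:00. The subunit nAChRa1 lost its call without the colony 2 dawn library (0.63, adjusted p = 0.204) and so did nAChRa3 (0.46, adjusted p = 0.103), though the difference of nAChRa3 was the same size. At 06:00 of day 12 nAChRa3 had 80.9 to 92.0 CPM, a range that overlaps with 10:00. That of nAChRa1, 29.4 to 52.2 CPM, did not overlap with 10:00.

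Ip3k, a kinase that phosphorylates the second messenger inositol trisphosphate, was at 66.0 and 77.8 CPM in colony 1 and 104 and 79.7 CPM in colony 2 at 10:00, against 56.5 and 50.3 CPM in colony 1 and 48.7 CPM in colony 2 at 06:00. The 3 dawn libraries lay close together and below all 4 of 10:00. The log2 difference came to 0.71 ± 0.18 (SE, adjusted p = 0.0311), and 0.73 (adjusted p = 0.0648) without the colony 2 dawn library. Adar, which deaminates adenosines in double-stranded RNA, was at 72.1 and 65.0 CPM in colony 1 and 129 and 110 CPM in colony 2 at 10:00, against 52.4 and 48.3 CPM in colony 1 and 52.7 CPM in colony 2 at 06:00. Here the dawn libraries of both colonies were alike and the colony 2 libraries of 10:00 were the highest. Between the times it differed by 0.79 ± 0.20 on the log2 scale (SE, adjusted p = 0.0358), and by 0.69 (adjusted p = 0.132) without the colony 2 dawn library. At 06:00 of day 12 Ip3k had 45.2 to 57.8 CPM and Adar 43.9 to 56.3 CPM, below all 4 libraries of 10:00.

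Hsp90, an abundant cytosolic chaperone that folds kinases and receptors, was at 3324 and 3521 CPM in colony 1 and 4054 and 3852 CPM in colony 2 at 10:00, against 1401 and 2243 CPM in colony 1 and 2818 CPM in colony 2 at 06:00. The groups did not overlap, and in this gene the colony 2 dawn library was the highest of its group. The log2 difference was 0.75 ± 0.21 (SE, adjusted p = 0.0486), close to the threshold, and it became 0.91 (adjusted p = 0.0292) without that library. At 06:00 of day 12 Hsp90 had 1854 to 3343 CPM, a range that overlaps with 10:00. The call was lost in 28 of 41 alternative runs, beside 21 for nAChRa3, 9 each for nAChRa1, Ip3k and Adar, and 3 for mGlutR1. Among the identifiers with the largest rises and falls, given below, losses ran from 2 runs for LOC412858 to 30 for LOC100576401. The microRNA gene Mir6058, also called, is not described, since poly(A) libraries do not measure mature microRNAs.

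**Figure D3:**
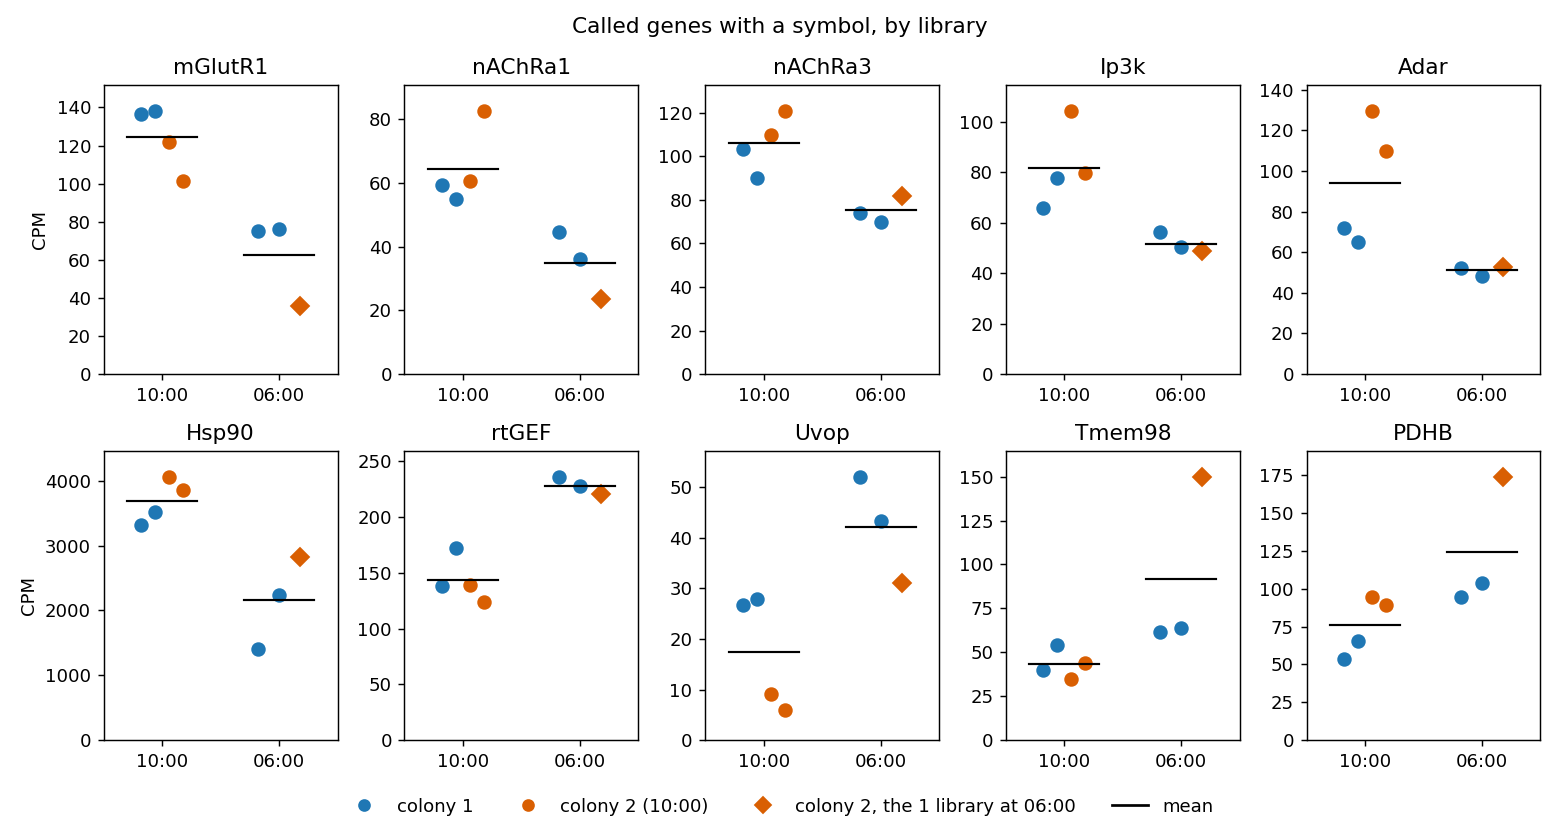
Each panel gives the CPM of 1 called gene in the 4 libraries of 10:00 (left) and the 3 of 06:00 (right), from a baseline of 0, with colony 1 in blue, colony 2 in orange, the colony 2 dawn library as a diamond and the mean as a line. The first 6 genes are higher and the last 4 lower at 10:00. In Tmem98 and PDHB the diamond stands above all other points.

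Of the 4 lower genes with a symbol, rtGEF held best. This gene, which encodes a guanine nucleotide exchange factor, was at 138 and 172 CPM in colony 1 and 139 and 124 CPM in colony 2 at 10:00, against 236 and 228 CPM in colony 1 and 220 CPM in colony 2 at 06:00. The 3 dawn libraries were nearly equal and none of the 10:00 libraries reached them. Its log2 difference was -0.65 ± 0.12 (SE, adjusted p = 0.00661), and -0.61 (adjusted p = 0.0135) without the colony 2 dawn library. It was the single gene with a symbol among the 51 called with each of the 7 libraries left out. At 06:00 of day 12 its libraries again had 196 to 237 CPM.

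Uvop, the opsin of the ultraviolet photoreceptors, was at 26.7 and 28.0 CPM in colony 1 and 9.14 and 6.01 CPM in colony 2 at 10:00, against 52.0 and 43.4 CPM in colony 1 and 31.1 CPM in colony 2 at 06:00. Every library of 10:00 was below every library of 06:00. In log2 terms it fell by 1.26 ± 0.30 (SE, adjusted p = 0.0253), and likewise by 1.26 (adjusted p = 0.0430) without the colony 2 dawn library. At 06:00 of day 12 Uvop had 32.4 to 49.8 CPM, above every library of 10:00. The other 3 opsins were not called, and the summed level of all 4 overlapped between the times, as given with the marker lists below.

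Tmem98, a transmembrane protein, was at 39.9 and 54.2 CPM in colony 1 and 34.9 and 43.8 CPM in colony 2 at 10:00, against 61.4 and 63.7 CPM in colony 1 and 150 CPM in colony 2 at 06:00. The colony 2 dawn library had more than any other of the 7. The log2 difference of -1.07 ± 0.23 (SE, adjusted p = 0.0128) shrank to -0.52 (adjusted p = 0.212) without it. PDHB, the beta subunit of the first enzyme of the mitochondrial pyruvate dehydrogenase complex, was at 53.9 and 65.6 CPM in colony 1 and 94.8 and 89.1 CPM in colony 2 at 10:00, against 94.6 and 104 CPM in colony 1 and 174 CPM in colony 2 at 06:00. Its groups overlapped by a narrow margin. The log2 difference of -0.74 ± 0.18 (SE, adjusted p = 0.0253) became -0.48 (adjusted p = 0.209) without the colony 2 dawn library. At 06:00 of day 12 PDHB had 72.7 to 105 CPM, a range that overlaps with 10:00. That of Tmem98, 65.3 to 75.3 CPM, did not overlap with 10:00.

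Other genes with a symbol were called once the colony 2 dawn library was left out. Fabp, a fatty acid-binding protein, then had a log2 difference of 1.15 (adjusted p = 0.00614), against 0.66 (adjusted p = 0.114) with that library. But the table holds a second copy of Fabp, so its reads may be split. INTS8, a subunit of the Integrator complex that processes small nuclear RNAs, had a log2 difference of -0.89 (adjusted p = 0.0125) without that library. With it the value was -0.61 (adjusted p = 0.103).

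The 6 genes known by identifier alone with the largest rises at 10:00 were taken from those averaging at least 10 CPM with no overlap between libraries. Their log2 differences, with colony as a term, correspond to rises of 3.13-fold to 4.30-fold. LOC412858 had the smallest adjusted p of the comparison. It was at 52.1 and 47.8 CPM in colony 1 and 35.4 and 30.4 CPM in colony 2 at 10:00, against 13.3 and 13.7 CPM in colony 1 and 9.18 CPM in colony 2 at 06:00. Its log2 difference was 1.81 (adjusted p = 0.00039), and 1.69 (adjusted p = 0.00243) without the colony 2 dawn library, and the 2 colonies differed little, with 1.84 in colony 2 and 1.89 in colony 1. At 06:00 of day 12 it stood at 20.8 to 28.2 CPM, between the 2 groups compared.

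LOC724642 was at 15.8 and 17.3 CPM in colony 1 and 11.6 and 17.2 CPM in colony 2 at 10:00, against 2.39 and 3.61 CPM in colony 1 and 7.32 CPM in colony 2 at 06:00. LOC726302 was at 30.7 and 36.8 CPM in colony 1 and 16.0 and 15.8 CPM in colony 2 at 10:00, against 6.93 and 3.81 CPM in colony 1 and 7.67 CPM in colony 2 at 06:00. Both were called with the colony 2 dawn library (log2 differences of 1.83 and 1.99) and without it (2.25 and 2.35, adjusted p = 0.0120 and 0.0244). LOC726153, at 9.22 to 22.7 CPM at 10:00 and 3.61 to 4.18 CPM at 06:00, had a log2 difference of 2.12 without that library that no longer passed (adjusted p = 0.0692). LOC408597 and LOC102654533 lost their calls as well, with log2 differences of 1.79 and 1.65 that became 1.32 and 1.30 (adjusted p = 0.208 and 0.228).

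The 6 identifiers with the largest falls had log2 differences, with colony as a term, that correspond to 0.274 to 0.379 times the level at 06:00. LOC552401 was at 15.5 and 14.0 CPM in colony 1 and 17.7 and 9.96 CPM in colony 2 at 10:00, against 29.2 and 39.8 CPM in colony 1 and 57.4 CPM in colony 2 at 06:00. LOC552037 was at 13.9 and 15.9 CPM in colony 1 and 23.7 and 10.7 CPM in colony 2 at 10:00, against 40.8 and 42.3 CPM in colony 1 and 57.7 CPM in colony 2 at 06:00. LOC102654530 was at 9.35 and 7.95 CPM in colony 1 and 6.16 and 4.98 CPM in colony 2 at 10:00, against 28.9 and 16.4 CPM in colony 1 and 18.9 CPM in colony 2 at 06:00. These 3 genes fell in both colonies and were called with each of the 7 libraries left out, with log2 differences of -1.29, -1.27 and -1.62 without the colony 2 dawn library.

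LOC551593 and LOC100577711 were called as well without the colony 2 dawn library (-1.01 and -1.47, adjusted p = 0.0316 and 0.0403). LOC100576401 was not. It was at 3.95 to 9.11 CPM at 10:00, against 10.3 and 12.5 CPM in colony 1 and 56.3 CPM in colony 2 at 06:00, and its log2 difference of -1.87 became -0.73 (adjusted p = 0.552).

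A few called genes of low level, described here after their values were seen, were close to absent in 1 of the groups. Under 10 CPM, 2 genes were called higher and 4 lower. LOC725495 had 1 and 6 counts in colony 1 and 0 and 0 counts in colony 2 at 10:00, against 72 and 52 counts in colony 1 and 28 counts in colony 2 at 06:00. LOC726451 had 0 and 4 counts in colony 1 and 0 and 0 counts in colony 2 at 10:00, against 34 and 17 counts in colony 1 and 51 counts in colony 2 at 06:00. Both were present at every library of 06:00 of day 12, at 2.997 to 8.76 CPM for LOC725495 and 1.84 to 6.29 CPM for LOC726451. The log2 difference of LOC725495 was -4.62 ± 0.86 (SE, adjusted p = 0.00500), and this gene was among the 51 genes called with each library left out. LOC726451 was not, with a log2 difference of -4.30 (adjusted p = 0.0706) without the colony 2 dawn library.

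In the other direction, the long noncoding RNA LOC107964977 had 11 and 14 counts in colony 1 and 13 and 10 counts in colony 2 at 10:00, against 0 counts in every library of 06:00. A count of 0 allows up to 3 counts per library, which makes the mean at 10:00 at least 4.92-fold higher. Such a floor takes in the error of counting alone, because reads that carry no molecular identifier need not stem from separate molecules. At 06:00 of day 12 the same RNA was found in 3 of the 4 libraries, at up to 1.38 CPM. Its call (adjusted p = 0.0489) was lost without the colony 2 dawn library (adjusted p = 0.126), while all counts of 06:00 stayed at 0. The other higher gene under 10 CPM, the long noncoding RNA LOC107964623, had 19 to 34 counts at 10:00 and 2 to 4 counts at 06:00. Its call (adjusted p = 0.0447) was lost without that library as well (adjusted p = 0.185). At 06:00 of day 12 LOC107964623 stood at 1.74 to 5.63 CPM, which overlaps with 2.01 to 5.22 CPM at 10:00.

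The 51 genes called with each of the 7 libraries left out were known by identifier except for rtGEF, and 26 of them (17 higher and 9 lower) were also called without the 3 libraries that stand apart. Of the 51, 4 are given here, chosen after their values were seen. LOC724177 was at 137 and 186 CPM in colony 1 and 216 and 143 CPM in colony 2 at 10:00, against 65.3 and 87.7 CPM in colony 1 and 78.5 CPM in colony 2 at 06:00 (log2 difference 1.15, adjusted p = 0.000747). LOC409949 was at 659 and 810 CPM in colony 1 and 501 and 589 CPM in colony 2 at 10:00, against 285 and 377 CPM in colony 1 and 299 CPM in colony 2 at 06:00 (1.01, adjusted p = 0.00197). In both genes the dawn libraries of the 2 colonies lay together, and the 06:00 libraries of day 12 were at 76.7 to 99.5 CPM for LOC724177 and 282 to 392 CPM for LOC409949, again below all 4 of 10:00.

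Among the lower genes, LOC100577833 was at 88.1 and 69.1 CPM in colony 1 and 88.8 and 67.3 CPM in colony 2 at 10:00, against 198 and 206 CPM in colony 1 and 159 CPM in colony 2 at 06:00 (log2 difference -1.24, adjusted p = 0.00111). LOC410475 was at 34.2 and 28.4 CPM in colony 1 and 25.2 and 30.9 CPM in colony 2 at 10:00, against 55.7 and 66.2 CPM in colony 1 and 94.7 CPM in colony 2 at 06:00 (-1.29, adjusted p = 0.000747). Neither group of libraries overlapped with the other in these genes, nor did the 4 libraries of 06:00 of day 12 overlap with 10:00. Of 8374 pairs of genes that are neighbours in the reference annotation and were both tested, 2 pairs were both higher (LOC100578854 with LOC102654696, Mir6058 with LOC725131). A further 2 were both lower (PDHB with LOC408655, LOC411618 with LOC409134), and 1 pair was called in opposite directions. The 1.28% of all genes called higher and the 1.35% called lower are shares of genes, so they cannot be set directly beside counts of pairs. Whether neighbours were called together more often than by chance was not tested. Reads of neighbouring or overlapping genes may not be separable here, and LOC100578854 and LOC102654696 are both among the 51.

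The core clock was represented by 2 genes that could be matched by name, and neither passed the test, though both had an unadjusted p under 0.05 (DESeq2 called 0 of 2). Per, the period protein of the negative limb of the clock, was at 28.3 and 33.0 CPM in colony 1 and 25.9 and 31.9 CPM in colony 2 at 10:00, against 24.9 and 27.8 CPM in colony 1 and 10.6 CPM in colony 2 at 06:00 (log2 difference 0.59 ± 0.26 SE, adjusted p = 0.214). Cry2, its mammalian-type cryptochrome partner, was at 5.68 and 7.21 CPM in colony 1 and 3.92 and 0 CPM in colony 2 at 10:00, against 12.95 and 13.2 CPM in colony 1 and 3.95 CPM in colony 2 at 06:00 (-1.21 ± 0.54 SE, adjusted p = 0.220). For Cry2 the colony 1 libraries did not overlap between the times, while colony 2 was low at both. Without the colony 2 dawn library the log2 differences were 0.28 for Per and -1.61 for Cry2 (adjusted p = 0.672 and 0.132).

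Counts of called genes stayed small within every list of functions. They are to be read beside the 1.28% of all genes called higher and the 45.4% of all genes with a positive difference. Most list members carry a symbol, and of 305 tested genes with a symbol 10 were called in either direction (microRNA and tRNA genes left out). The lists were chosen with earlier results of these data known. Of the 5 chaperones, 1 rose (Hsp90) and all 5 had positive differences, with a median of 0.18. Of the 11 genes for acetylcholine receptors and esterase, 2 rose and 8 were positive, with a median of 0.37. Of the 8 genes for glutamate, GABA and histamine signalling, 1 rose (mGlutR1) and 7 were positive, with a median of 0.35. Of the 6 genes for calcium, cyclic nucleotide and phosphoinositide signalling, 1 rose (Ip3k) and 6 were positive, with a median of 0.48. An unadjusted p under 0.05 was found for 2, 5, 2 and 1 genes of these 4 lists, and DESeq2 called 2, 3, 2 and 1. The medians stand beside -0.05 over all genes, and without the colony 2 dawn library they were 0.27, 0.29, 0.46 and 0.13 beside 0.00.

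No member was called in the lists of neuropeptides and their receptors (7 genes, median 0.45), amine receptors (9 genes, 0.32), synaptic release and adhesion (9 genes, 0.36), ecdysteroid and juvenile hormone (8 genes, 0.35) and noncoding RNAs (3 genes, 1.10). Without the colony 2 dawn library these medians were 1.09, 0.01, 0.10, 0.02 and 0.70. At an unadjusted p under 0.05 the counts in these lists were 0, 3, 2, 4 and 1, and DESeq2 called 0, 2 (Dop1 and TyrR), 1 (Syx1A), 1 (E74) and 0. The tyramine receptor TyrR came close, with 387 and 365 CPM in colony 1 and 305 and 458 CPM in colony 2 at 10:00, against 278 and 231 CPM in colony 1 and 64.9 CPM in colony 2 at 06:00 (log2 difference 1.06, adjusted p = 0.0661). Dop1, a dopamine receptor that raises cyclic AMP, had 458 and 334 CPM in colony 1 and 363 and 350 CPM in colony 2 at 10:00, against 288 and 252 CPM in colony 1 and 54.2 CPM in colony 2 at 06:00 (1.01, adjusted p = 0.0749). In both receptors all libraries of 10:00 exceeded all of 06:00, and the colony 2 dawn library was far below the other 2 dawn libraries. Without it the log2 differences were 0.59 and 0.50 (adjusted p = 0.268 and 0.230).

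SIFR, the receptor of the neuropeptide SIFamide, was at 45.1 and 40.8 CPM in colony 1 and 71.4 and 60.3 CPM in colony 2 at 10:00, against 21.6 and 28.1 CPM in colony 1 and 69.2 CPM in colony 2 at 06:00 (0.45, adjusted p = 0.474). The groups overlapped through the colony 2 dawn library, and without it the log2 difference was 1.09 (adjusted p = 0.0883). Syx1A, a syntaxin of the vesicle fusion machinery, had a log2 difference of 0.54 (adjusted p = 0.103), and 0.34 without the colony 2 dawn library. For Mblk-1, a transcription factor of the ecdysone pathway, the values were 0.77 (adjusted p = 0.150) and 0.39. Ks-1, a noncoding RNA of Kenyon cells, was at 23.3 and 10.9 CPM in colony 1 and 61.7 and 54.1 CPM in colony 2 at 10:00, against 17.0 and 9.48 CPM in colony 1 and 11.0 CPM in colony 2 at 06:00, so that the high values were those of colony 2 at 10:00. The log2 difference of Ks-1 was 1.10, and 0.70 without the colony 2 dawn library.

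Several lists had negative medians that turned positive without the colony 2 dawn library. None of 7 ribosomal protein genes was called and none was positive (median -0.29), 1 of 7 mitochondrial energy genes fell (PDHB) and none was positive (-0.24), and none of 8 antioxidant enzymes tested was called (-0.14). Without that library the medians of these lists were 0.17, 0.12 and 0.31. Sod1, the copper-zinc superoxide dismutase, shows the pattern, with 323 to 797 CPM at 10:00 and 359, 428 and 1315 CPM at 06:00, the last in the colony 2 dawn library. No member was called among the royal jelly and yellow genes (10 tested, median 0.55), the odorant-binding and chemosensory genes (11 tested, -0.85) or the troponins (6 tested, 0.83), and 1 of 4 opsins fell (Uvop, list median -0.42). Without the colony 2 dawn library these 4 medians were 0.82, 0.33, 1.77 and 0.19, so those of the odorant-binding and chemosensory genes and of the opsins changed sign. Of the lists without a call in this paragraph, an unadjusted p under 0.05 was found for 3 chemosensory genes (Obp3, CSP1 and CSP2, of which DESeq2 called CSP1 and CSP2) and 1 troponin (TpnCIIa), and for 0 ribosomal, antioxidant or royal jelly and yellow genes, where DESeq2 called 0. Among the 7 libraries, Obp3 had counts in the colony 2 dawn library alone, 14 in all.

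Markers of the tissue were present in all 7 libraries, and their levels moved with the library. The 4 small Kenyon cell markers (Ecr, E74, Tk and DopR2) summed to 1440 to 2050 CPM at 10:00, against 2040 and 1570 CPM in colony 1 and 446 CPM in colony 2 at 06:00. Across the 20 libraries outside the comparison that sum was 1080 to 2430 CPM, so the colony 2 dawn library lay below every other library. The 4 markers of large and middle Kenyon cells (Mblk-1, Camkii, Ip3k and Pkc) summed to 5470 to 9720 CPM at 10:00, against 6740 and 5540 CPM in colony 1 and 2500 CPM in colony 2 at 06:00, with 3920 to 11100 CPM in the other 20. None of these 8 genes was at 0 in all 7 libraries, and 1 of them, Ip3k, was called.

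Markers of other cells were detected as well. The gland, fat body and hemolymph genes, 19 of 38 listed having enough counts, summed to 604 to 1560 CPM at 10:00 and 384 to 2170 CPM at 06:00, the highest being the colony 2 dawn library. Of that list 8 genes were at 0 in all 7 libraries (Mrjp3, Mrjp9, Hex70c, Def2, Obp2, Obp7, Obp15 and Obp16). The troponins, 6 of 7 tested and TpnCIIb at 0, summed to 87.6 to 705 CPM at 10:00 and 49.0 to 282 CPM at 06:00. The 4 opsins summed to 43.3 to 375 CPM at 10:00 and 89.4 to 285 CPM at 06:00, and the 1 glial gene matched, Eaat-2, had 72.7 to 165 CPM at 10:00 and 62.4 to 211 CPM at 06:00. In these lists, other than that of the glial gene, the highest library of each time was a colony 2 library. The part of these cells in the differences between the times was not tested.

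**Figure D4:**
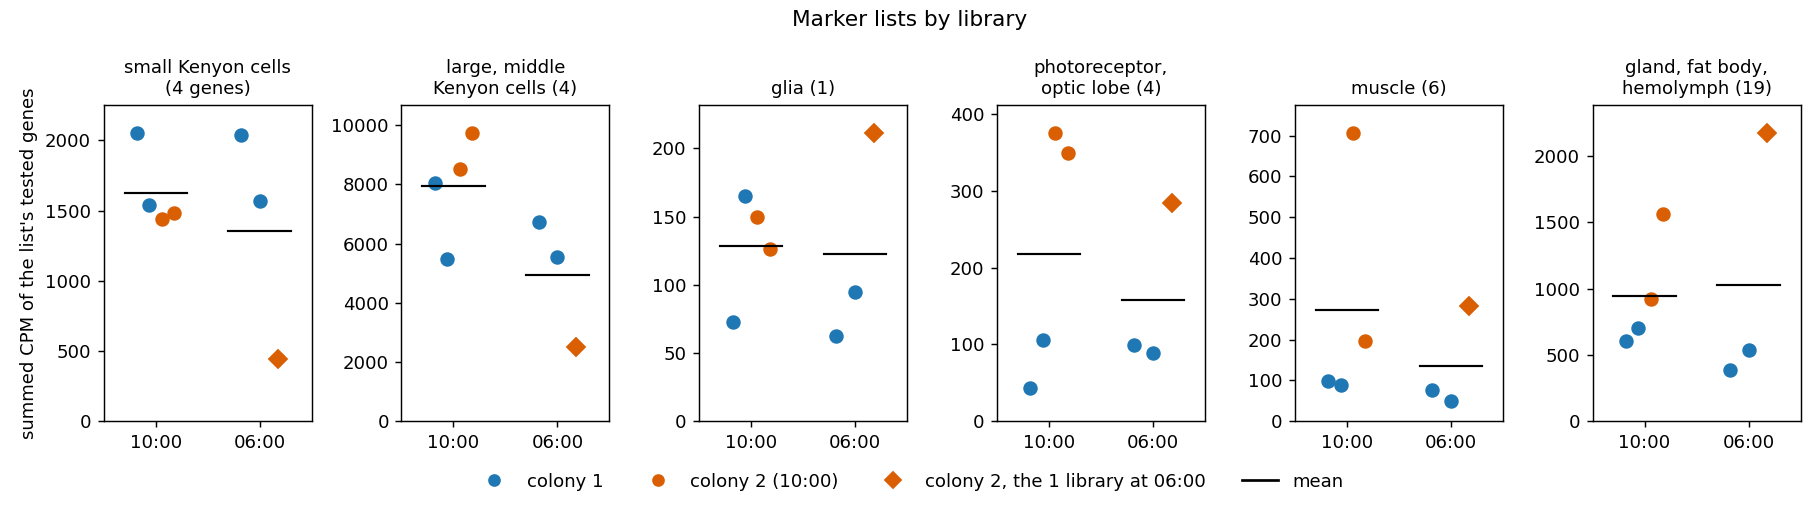
Each panel gives the summed CPM of the tested genes of 1 marker list in the 4 libraries of 10:00 (left) and the 3 of 06:00 (right), from a baseline of 0, with the mean as a line. In both Kenyon cell panels the colony 2 dawn library (diamond) is the lowest of the 7, and in the glia and gland panels it is the highest.

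The change between the times differed between the colonies for many genes, but colony 2 has only the 1 dawn library, so colony and library cannot be told apart. The contrast is signed, so a smaller value in colony 2 can be a larger fall there. Tmem98, for example, had a log2 difference of -1.93 in colony 2 and -0.41 in colony 1. The contrast of the changes, colony 2 minus colony 1, called 1536 genes (15.6% of those tested, and 2921 at an unadjusted p under 0.05), 947 with a larger and 589 with a smaller value in colony 2. Among the 259 genes called between the times, 66 were also called in this contrast. NLG-3, a neuroligin of the synapse, was at 59.3 and 55.3 CPM in colony 1 and 45.0 and 46.5 CPM in colony 2 at 10:00, against 57.7 and 47.7 CPM in colony 1 and 6.97 CPM in colony 2 at 06:00. Its log2 difference was 2.71 in colony 2 and 0.12 in colony 1 (adjusted p of that contrast = 7.12e-05). At 06:00 of day 12 the colony 2 libraries had 45.3 and 35.1 CPM of NLG-3, so the low value was found in the colony 2 dawn library and not in both dawns of that colony. Within colony 1 alone, where 2 libraries stood against 2, 340 genes were higher and 311 lower. Among them were 177 of the 259 genes, in the same direction, though these libraries were also used in choosing the 259. The spread of that fit came from all colony 1 libraries. The coefficient of variation between libraries, beyond counting noise, was 0.178 in colony 1 and 0.389 in colony 2. The main fit used 1 spread for both colonies.

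The same clock time a day later gave no called gene. Between 06:00 of day 12 and 06:00 of day 11, edgeR's quasi-likelihood test called 0 of 9816 genes (0%), and 1138 genes had an unadjusted p under 0.05. The smallest adjusted p of that test was 0.369. A single library decided this count: without the colony 1 replicate 1 library of 06:00 of day 11, 366 genes were called. DESeq2 called 1 gene, the odorant-binding protein gene Obp3. It had 14 counts in the colony 2 dawn library and 0 in every other library of either dawn, so that call rests on 1 library. Because both contrasts use the day 11 dawn libraries, the called genes' values at 06:00 of day 12 are given here only as levels.

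Over the day, the called genes were near their level of 06:00 of day 12 by late evening. Relative to 06:00 of day 12, the 126 higher genes had median log2 differences of -0.28 at 06:00 and 0.60 at 10:00, by which they were chosen. They then stood at 0.26 at 14:00, 0.27 at 18:00, 0.03 at 22:00 and -0.05 at 02:00. The 133 lower genes had 0.23 at 06:00 and -0.50 at 10:00, then -0.18 at 14:00, -0.17 at 18:00, -0.04 at 22:00 and 0.02 at 02:00. The mean was highest at 10:00 for 117 of the 126 genes and lowest at 10:00 for 124 of the 133, shares that the choice of genes favours, beside 17.7% and 27.9% of all genes.

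**Figure D5:**
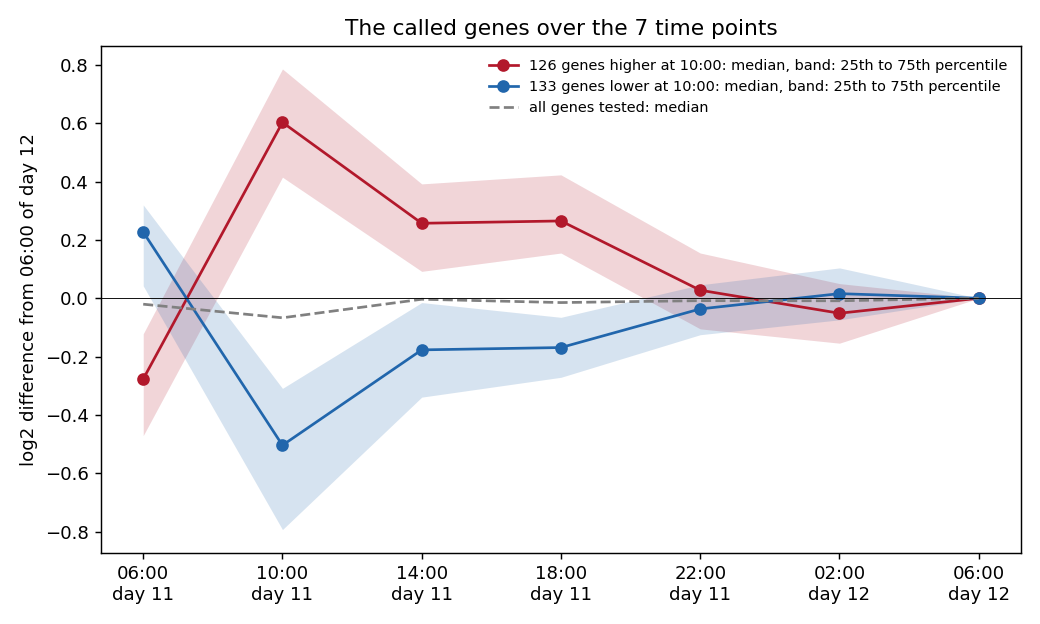
The vertical axis gives the log2 difference from 06:00 of day 12 and the horizontal axis the 7 time points in order. Lines are the medians of the 126 higher genes (red), the 133 lower genes (blue) and all genes tested (dashed), and bands run from the 25th to the 75th percentile of the genes. The medians at 14:00 and 18:00, 0.26 and 0.27 for the higher genes, lie between those at 10:00 and 22:00.

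An afternoon contrast that uses none of the 7 libraries compared 14:00 of day 11 with 06:00 of day 12, and was added after the data were seen. It called 5 genes higher (0.0509%) and 4 lower (0.0407%). Of the 126 higher genes 2 were among the 5, and of the 133 lower genes 1 was among the 4. LOC724642 averaged 15.3 ± 3.63 CPM in the 14:00 libraries, against 4.10 ± 1.51 CPM in those of 06:00 of day 12 (SD, n = 4 each), a log2 difference of 1.88, beside a mean of 15.5 CPM at 10:00. LOC552313 averaged 81.3 ± 12.1 CPM at 14:00, against 31.6 ± 10.4 CPM in the day 12 dawn libraries, a log2 difference of 1.39, beside 68.6 CPM at 10:00 and 29.6 CPM at 06:00 of day 11. LOC100576660 averaged 58.6 ± 17.1 CPM at 14:00, against 116 ± 9.61 CPM in the day 12 dawn libraries, a log2 difference of -1.04, beside 59.8 CPM at 10:00 and 114 CPM at 06:00 of day 11. For LOC724642 and LOC100576660 the means at 14:00 and 10:00 lay within 1 SD of each other.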

How the data were processed

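The authors deposited raw counts, 1 whole number per gene and library, made from stranded poly(A) libraries per the labels. The submitters' processing notes name Trimmomatic, FastQC, STAR, featureCounts and DESeq2, without versions. Which genome, gene models and strand option the counting used is not given in the sources used here, and no coordinates are printed. Gene symbols were checked against a RefSeq gene table (Amel_HAv3.1), which 12166 of 12319 identifiers equalled.

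The tests used edgeR 4.0.16 (R 4.3.3): filterByExpr by time point, TMM, glmQLFit (robust) and glmQLFTest on all 27 libraries, with time point and colony as terms, and Benjamini-Hochberg adjustment over 9816 genes (called under 0.05). The genes kept held at least 99.97% of each library's counts. An SE is the absolute log2 difference divided by the root of its F statistic. CPM use TMM-adjusted library sizes, and principal components log2 CPM with a prior count of 2. DESeq2 1.42.0 and limma 3.58.1 were alternatives. The fit was also run on simulated counts. These had 1 spread per gene for both colonies, unlike the data (0.178 in colony 1 and 0.389 in colony 2). That run therefore cannot decide how far the calls hold here.

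Libraries of the same colony and time differed by more than sampling noise (chi-square per degree of freedom 20.2 to 29.8), so none was counted as a repeat. Named genes were, in each direction, up to 6 with a symbol and 6 known by identifier with the largest log2 differences, among called genes averaging at least 10 CPM over the 7 libraries without overlap between the times. To these were added the clock genes and, of every other list, up to 3 called members or the 2 with the largest differences. The comparison, the lists and the rule were chosen with earlier results of these data known. MicroRNA and tRNA genes were not named by the rule. Alternatives changed scaling, filter, test, libraries and the replicate block.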

Additional observations from a re-analysis of the deposited data

Results flagged for a closer look

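Of the 48 named genes, 2 had a library of 10:00 far from the other 3. Chance flags about 1 in 20 groups. CSP1, a chemosensory protein, was at 82.1 CPM in the colony 2 replicate 2 library and at 5.04 to 5.40 CPM in the others. TpnCIIIa, a troponin C, was at 285 CPM in the colony 2 replicate 1 library and at 27.7 to 56.5 CPM in the others. Groups of 3, such as 06:00, were not examined in this way.

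The contrast of the change in colony 2 with that in colony 1 passed edgeR's test for 1536 genes, 13 named ones among them. It rests on the 1 colony 2 dawn library, so colony and library cannot be told apart. As log2 differences, colony 2 minus colony 1, these were 2.59 for NLG-3, 2.16 for Dop1, 2.02 for Ks-1, 1.99 for TyrR, 1.72 for Mblk-1, 1.69 for the neuropeptide gene Tk, 1.62 for the transcription factor E74, 1.57 for the noncoding RNA Ancr-1 and 1.10 for nAChRa1. They were -0.74 for the thioredoxin peroxidase Tpx-3, -1.09 for Y-f of the yellow family, -1.52 for Tmem98 and -2.67 for LOC100576401. In each of the 13 the colony 2 dawn library was the lowest or the highest of the 3 dawn libraries except Ks-1, where it lay between the colony 1 libraries. Its part was not tested.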

How the results depend on the processing

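Of the numbers of genes higher and lower at 10:00 (126 and 133), scaling by RLE or upper quartile, no filter, a CPM filter, limma-voom and estimation without robustness each gave counts within 1.5 times. DESeq2 called 313 higher and 279 lower, and limma-voom with quality weights 557 and 523. Without the 3 libraries standing apart, the counts were 49 and 41, with 51 genes shared. Colony 1 alone gave 340 and 311. Colony 2 alone, with 1 dawn library, gave 924 and 517, and 1 of the 259 genes, LOC412863, had the opposite direction there. Fitting the 7 libraries alone, edgeR called 0 and 0 (1067 genes at an unadjusted p under 0.05, limma-voom 0), and on libraries summed by colony and time 0 and 0 (1232, limma-voom 0). Leaving out 1 library at a time gave 70 to 333 higher and 63 to 360 lower, the colony difference ran from 708 to 1979 genes, and the 2 dawns from 0 to 366. Without the colony 2 dawn library the colony difference could not be fitted. Leaving out that library and, separately, all 3 standing apart, 39 genes kept their calls (21 higher and 18 lower). The cause of these shifts was not tested. Libraries with the same replicate number were treated as unpaired in the main fit. Of the correlations between them, 5 of 21 in colony 1 and 1 of 15 in colony 2 exceeded 0.1. The single pair within the comparison, colony 1 at 10:00 and 06:00, had r = 0.178. With the replicate block, 89 genes were higher and 82 lower, and 1521 were called for the colony difference. Low counts limit the precision of genes under 10 CPM.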
